A study of Mus musculus with 3 samples.

Results

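The genes described here are 9 secreted-protein genes of the acute-phase response, counted in single cells of mouse dorsal skin: the serum amyloid A genes Saa1, Saa2 and Saa3, the metal- and heme-handling genes Lcn2, Hp and Cp, the leucine-rich glycoprotein gene Lrg1, and the serpin genes Serpina3n and Serpina3m. They are 9 of 31053 genes in the count matrices, were found by symbol, and each matched 1 row. They were chosen by their measured rise with imiquimod in fibroblasts, among the largest of all genes, so that rise is given below as a description and supports nothing.

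The skin came from C57BL/6 mice aged 7 weeks, in 3 groups of 1 library each. The group labelled normal received glycerin. The IMQ group received imiquimod, a TLR7 agonist that produces psoriasis-like inflammation in mouse skin. The third group, called IMQ+celastrol here, received imiquimod together with celastrol, a plant triterpenoid, so imiquimod is shared by the last 2 groups. The number of mice behind each library is not given in the sources used here. With 1 library in a group, no difference below has a replicate check, no p-value was computed, and each comparison is one between libraries. Intervals in parentheses are 95% intervals for counting error only.

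Acute-phase proteins are plasma proteins whose levels change during inflammation, mostly through IL-6 family and IL-1 signalling to the liver acting on C/EBP, STAT3 and NF-κB factors. Serum amyloid A proteins bind lipids and can act on neutrophils and macrophages, and mouse Saa3 is known to be made mainly outside the liver. In skin several of these genes are also expressed by keratinocytes, fibroblasts and phagocytes, and lipocalin 2 and serum amyloid A are raised in human psoriasis.

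The 3 Saa genes lie together on chromosome 7 (GRCm38) within 42316 bases. Saa3 spans chr7:46711998-46715700 on the minus strand, Saa1 chr7:46740497-46742980 on the minus strand, and Saa2 chr7:46751790-46754313 on the plus strand. Serpina3m (chr12:104338486-104394257) and Serpina3n (chr12:104406729-104414329) are neighbours on the plus strand of chromosome 12 with 12471 bases between them. Lcn2 lies at chr2:32384633-32388252 and Hp at chr8:109575128-109579172, both on the minus strand. Lrg1 is at chr17:56119678-56122001 on the minus strand and Cp at chr3:19957054-20009145 on the plus strand. All 9 are annotated as protein coding.

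The Saa promoters are shown because the levels of the 3 genes, pooled over fibroblasts, were all higher with imiquimod and lower with celastrol, yet lay far apart. The bases just upstream of the annotated first exon are printed from the RefSeq promoter table (GRCm38.p6), 5′ to 3′ on the strand of the gene, with matches to the C/EBP letters TTGCNNAA, on either strand, in capitals. Saa1 is chr7:46742981-46743230 (minus strand), Saa2 is chr7:46751583-46751789 (plus strand) and Saa3 is chr7:46715701-46715926 (minus strand).
Saa1: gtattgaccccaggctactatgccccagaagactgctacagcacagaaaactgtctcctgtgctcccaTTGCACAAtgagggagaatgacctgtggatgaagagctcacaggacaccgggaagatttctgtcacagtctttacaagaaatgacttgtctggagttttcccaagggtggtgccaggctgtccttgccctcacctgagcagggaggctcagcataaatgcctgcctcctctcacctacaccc
Saa2: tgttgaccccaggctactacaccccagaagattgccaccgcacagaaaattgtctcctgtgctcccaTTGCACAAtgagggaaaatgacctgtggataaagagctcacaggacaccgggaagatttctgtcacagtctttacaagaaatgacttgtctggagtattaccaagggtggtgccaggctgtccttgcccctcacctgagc
Saa3: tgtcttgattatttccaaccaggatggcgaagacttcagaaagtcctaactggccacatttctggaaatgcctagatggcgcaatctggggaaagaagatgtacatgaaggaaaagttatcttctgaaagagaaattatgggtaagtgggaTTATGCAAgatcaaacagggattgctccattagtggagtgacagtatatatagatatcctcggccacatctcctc

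The 250 bases upstream of the RefSeq start were 95.6% identical between Saa1 and Saa2 over 249 aligned bases. Saa1 and Saa3 shared 75.1% over 205 aligned bases, and Saa2 and Saa3 71.0% over 207. The C/EBP match lies 182 to 175 bases before the RefSeq start in Saa1 and 183 to 176 bases before it in Saa2, with the same 8 letters. In Saa3 it is on the other strand, 99 to 92 bases before the start. Lcn2 and the second of the promoters listed for Cp also hold a match, and 9.56% of all 32851 promoter windows of this length do. Of the 250 bases of these 2 windows, 197 in Lcn2 and 195 in Cp lie in annotated exons of the gene. The Cp match lies in that exonic part. The letters TGANTCA (AP-1) were found in the first Cp promoter, as in 6.75% of all windows. TATAAA was found in the exonic part of the second, as in 12.4% of all windows. Neither the NF-κB motif (7.25% of windows) nor TTCNNNGAA (STAT; 7.02%) was found in the windows of the 7 genes that the table holds, which says only that these letters are not in these windows. Hp and Serpina3m had no entry.

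Filtering retained 9558, 7495 and 6092 cells of the normal, IMQ and IMQ+celastrol libraries, which held 67600588, 108027198 and 95653239 unique molecular identifiers (UMIs, the counted transcript molecules). Cells were clustered without the 9 genes and named from marker lists. Fibroblast-like cells numbered 3374, 3489 and 2696, with a median of 4447.5, 8640 and 8484.5 UMIs per cell, so normal fibroblasts were sampled less deeply. Keratinocyte-like cells numbered 2836, 1248 and 1705, and monocyte or macrophage-like cells 114, 411 and 58. A level is the UMIs of a gene in a class of 1 library, pooled over its cells, as CPM (counts per 1000000 UMIs). The 3′ counts are not divided by gene length, since each UMI stands for 1 transcript end. A gene is called higher or lower here when it had at least 20 UMIs over both libraries, its CPM differed at least 2-fold and the counting interval of the ratio left out 1. Libraries shared between 15 and 26 cell barcodes pairwise.

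In fibroblast-like cells all 9 genes were lowest in normal skin, highest with imiquimod, and in between with imiquimod and celastrol. Saa3, which encodes the extrahepatic serum amyloid A, had 2.47 CPM in normal (42 UMIs), 19315 CPM in IMQ (664162 UMIs) and 1626 CPM in IMQ+celastrol (42687 UMIs), the highest of the 9 in both imiquimod libraries but not in normal. Of the 42 normal UMIs, 27 came from 1 cell. Saa3 alone thus made up more than 1 in every 100 fibroblast UMIs in the IMQ library. Saa1, a circulating form made chiefly by liver, was counted at 0.528, 158 and 6.93 CPM in normal, IMQ and IMQ+celastrol. Its close copy Saa2 was counted at 0.0587, 32.6 and 1.07 CPM, from 1, 1121 and 28 UMIs. For every 1000 Saa3 UMIs there were 8.16 of Saa1 in IMQ and 4.26 in IMQ+celastrol. Saa1 and Saa2 share 34 of 351 words of 50 bases at their transcripts' 3′ ends, so how reads were split between this pair is uncertain. Saa3 shares 56 of 351 such words with transcripts of other genes, so its counts carry the same limit, and the 6 genes outside the Saa family share none.

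Among the genes for iron, copper and heme proteins, Lcn2 followed Saa3 most closely. Lcn2 encodes lipocalin 2, which withholds iron from bacteria by binding siderophores, and was counted at 0.470, 2612 and 168 CPM in normal, IMQ and IMQ+celastrol fibroblasts. Hp encodes haptoglobin, which binds free hemoglobin, and had 0.470, 239 and 10.4 CPM. Cp encodes ceruloplasmin, a copper-carrying ferroxidase, and had 26.2, 484 and 132 CPM, so it was already present in normal fibroblasts. Lrg1 encodes a secreted glycoprotein that modifies TGF-β signalling in vessels and had 0.470, 30.3 and 1.98 CPM. The serpins are relatives of human α1-antichymotrypsin, an inhibitor of proteases. Serpina3n was the only one of the 9 above 100 CPM in normal fibroblasts, at 249 CPM, with 2613 CPM in IMQ and 1193 CPM in IMQ+celastrol. Serpina3m had 0.470, 87.5 and 13.5 CPM.

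**Figure D1:**
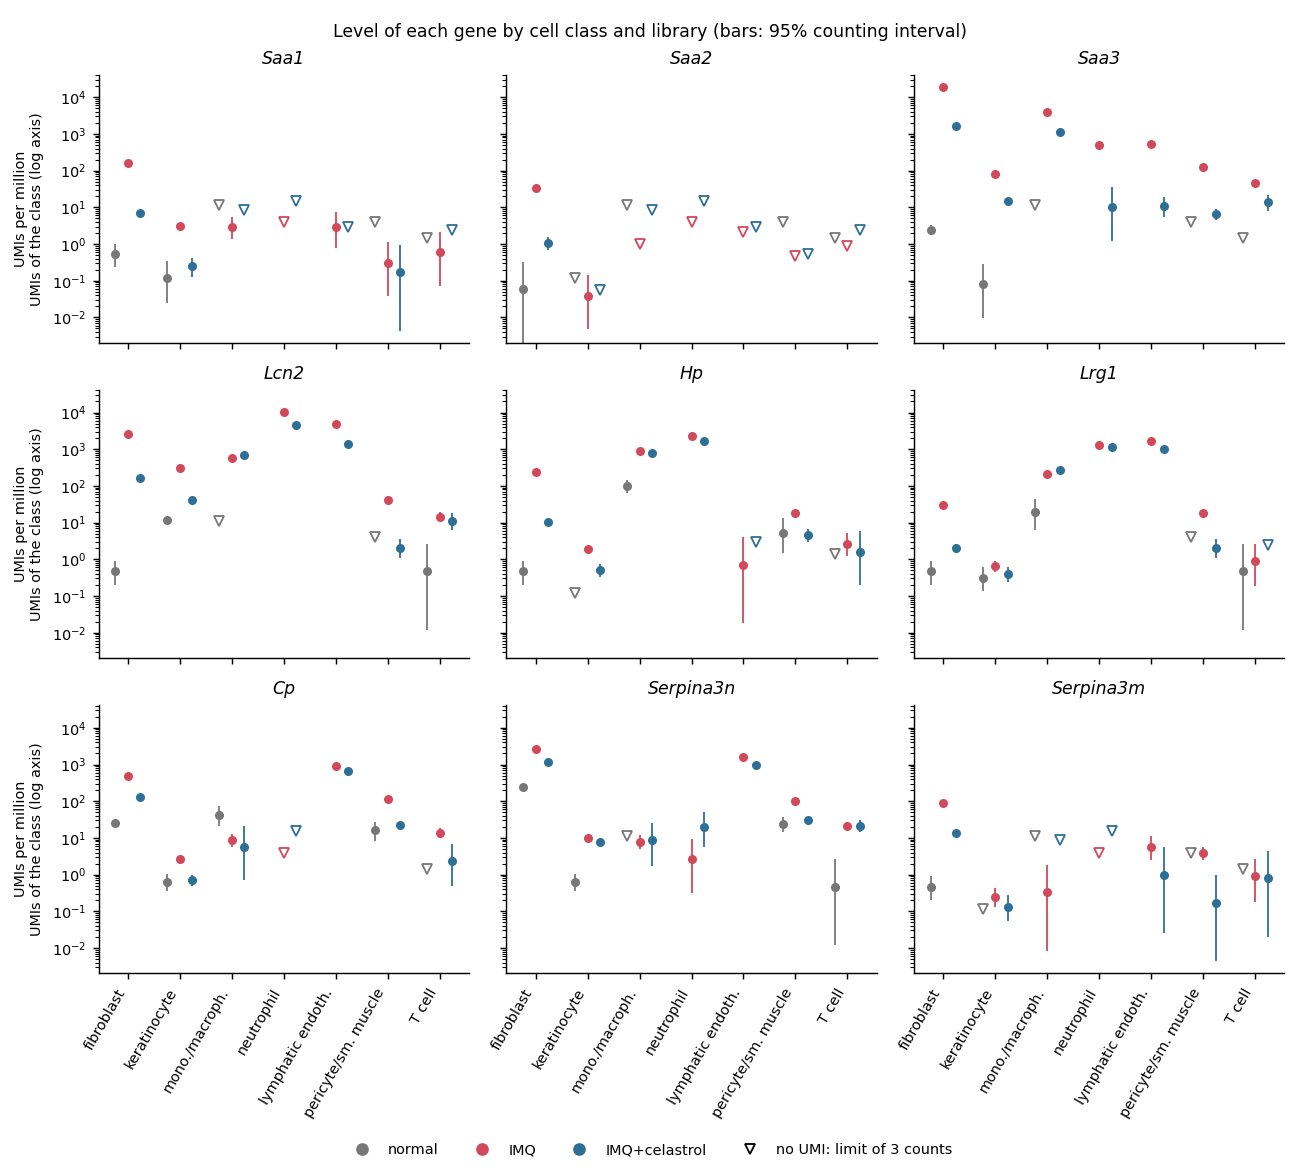
Level of each gene (CPM, log axis) in 7 cell classes of the 3 libraries, with exact Poisson 95% intervals. Open triangles mark classes with no UMI at the limit that 3 counts set, and groups under 50 cells are not drawn. In fibroblast-like cells every gene is highest in IMQ, with Saa3 at 19315 CPM, and IMQ+celastrol lies between IMQ and normal.

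The rise with imiquimod in fibroblasts is the property the genes were picked for. Saa3 was 7835-fold higher in IMQ than in normal (5796 to 10871; log2 12.94, and 11.43 to 14.59 over the alternative analyses) and Lcn2 5563-fold (2823 to 12885). Saa2, with 1 normal UMI, was 555-fold higher (99.5 to 21956), Hp 510-fold, Saa1 298-fold and Serpina3m 186-fold. Lrg1 was 64.5-fold higher, Cp 18.5-fold (16.8 to 20.3) and Serpina3n 10.5-fold (10.2 to 10.8). All 9 were called higher, where 6.91% of 14218 genes tested were. Ranked by the rise in log2(CPM + 1) among those genes, the 9 fell between position 1 (Saa3) and position 56 (Serpina3n). The rule that chose them named no threshold.

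Imiquimod together with celastrol against imiquimod alone gave a lower level of all 9 genes in fibroblast-like cells, where 2.81% of 14279 genes tested were called lower. This comparison shares the IMQ library with the one that chose the genes. Saa2 was 30.6-fold lower (21.0 to 46.2), Hp 23.0-fold (20.4 to 26.1) and Saa1 22.7-fold (19.6 to 26.5). Lcn2 was 15.5-fold lower (15.05 to 15.99), Lrg1 15.3-fold (11.6 to 20.6) and Saa3 11.9-fold (11.76 to 11.996). The serpins and ceruloplasmin differed less: Serpina3m was 6.47-fold lower (5.80 to 7.24), Cp 3.67-fold (3.54 to 3.81) and Serpina3n 2.19-fold (2.16 to 2.22). Between these libraries the fold was larger for Saa1 and Saa2 than for Lcn2 and Saa3, and Serpina3n and Cp stayed nearest to their IMQ level. The intervals take each UMI as independent, but the 10% of IMQ fibroblasts with most Saa1 held 91.0% of its UMIs. For Saa2 that share was 100%, so the intervals cannot establish this order. With all genes ranked by the fall in log2(CPM + 1), which gives low genes less weight than the folds above, Hp stood at position 2, Saa1 at 3, Saa2 at 5, Lcn2 at 6, Saa3 at 8, Lrg1 at 9, Serpina3m at 28, Cp at 53 and Serpina3n at 147. The median log2 ratio of the 9, with 1 CPM added to each level, was −3.57 beside 0.16 over all genes tested. Serpina3n lay close to the 2-fold limit and lost its call in 3 alternative analyses: with doublets kept, its log2 ratio was −0.98, with all cells thinned to one depth −0.996, and with subsets weighted as in IMQ −0.81.

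The levels with celastrol remained above normal. In IMQ+celastrol against normal fibroblasts, which shares both libraries with the comparisons above, all 9 were called higher (5.73% of genes tested were). Saa3 was 660-fold higher (488 to 915), Lcn2 359-fold (182 to 831) and Serpina3m 28.8-fold (14.5 to 67.2). At the other end, Cp was 5.02-fold (4.55 to 5.55), Serpina3n 4.80-fold (4.65 to 4.95) and Lrg1 4.22-fold (1.99 to 10.3) higher.

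**Figure D2:**
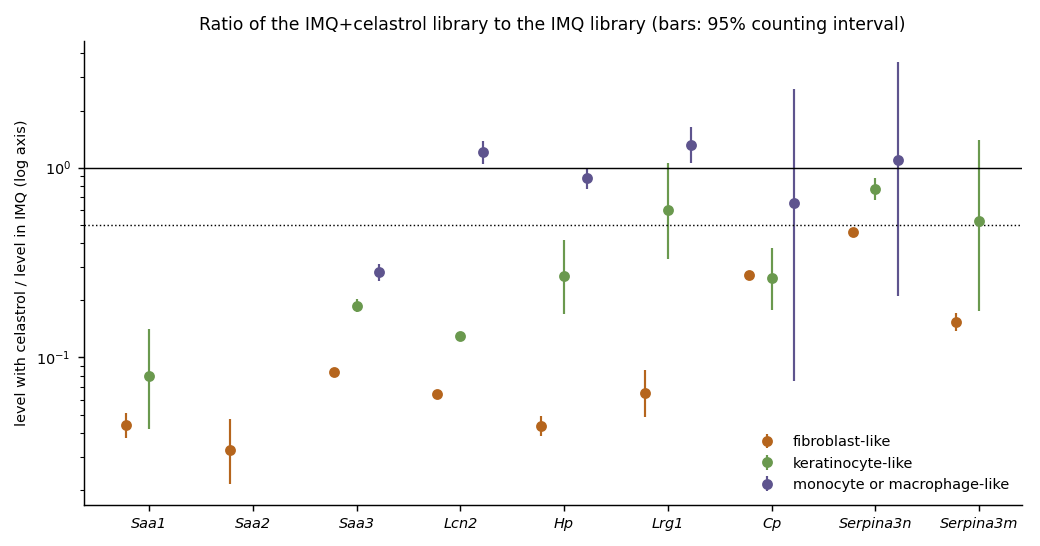
Ratio of IMQ+celastrol to IMQ for each gene (log axis) with counting intervals, in fibroblast-like, keratinocyte-like and monocyte or macrophage-like cells. The solid line marks equal levels and the dotted line a ratio of 0.5. All 9 fibroblast points lie below the dotted line, with Serpina3n nearest to it, while in monocyte or macrophage-like cells only Saa3 does.

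The fibroblast-like cells of the IMQ library included 5 cells with at least 5 UMIs of the adipocyte genes Adipoq, Plin1 and Cidec together, and there were none among fibroblast-like cells of the other 2 libraries. These 5 cells carried 54.2% of the Hp UMIs of IMQ fibroblasts (4460 of 8234), 41.7% of Lrg1, 21.9% of Saa2, 2.95% of Saa1, 2.16% of Lcn2 and 0.198% of Saa3. Each had between 4 and 20 UMIs of the 5 fibroblast genes Col1a1, Col1a2, Col3a1, Dcn and Lum. Hp per cell was 249, 522, 965, 1055 and 1669 UMIs in them. Without these cells, Hp in IMQ fibroblasts was 110 CPM and its level in IMQ+celastrol was 10.6-fold lower (9.36 to 12.01). Lrg1 was then 17.7 CPM and 8.94-fold lower (6.73 to 12.1), and Saa2 25.5 CPM and 23.9-fold lower. All 9 genes were still called in both comparisons, so the Hp and Lrg1 folds depend on these cells more than the calls do.

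Most IMQ fibroblasts held Saa3, Lcn2 and Serpina3n transcripts, and smaller shares of IMQ+celastrol fibroblasts did. To compare shares of cells, each cell was thinned to 3000 UMIs, which left out 914 normal, 338 IMQ and 330 IMQ+celastrol fibroblasts. Saa3 was then detected in 0.122% of normal, 64.7% of IMQ and 20.4% of IMQ+celastrol fibroblasts, against 0.178%, 69.1% and 25.5% before thinning. Among the cells with a Saa3 UMI, the median was 37 UMIs in IMQ and 6 in IMQ+celastrol. Both the share of positive cells and the amount in them were thus lower with celastrol. Lcn2 was detected in 0.122%, 66.9% and 14.2% of thinned fibroblasts, Serpina3n in 27.6%, 87.6% and 60.4%, and Cp in 6.06%, 46.5% and 23.0%. The rarer genes were Serpina3m (17.8% in IMQ, 3.59% in IMQ+celastrol), Saa1 (12.6% and 1.39%), Hp (5.55% and 0.888%), Lrg1 (4.22% and 0.634%) and Saa2 (2.76% and 0.338%). T cell-like cells, which are not known to make Saa3, gave a share for free RNA: Saa3 was seen in 11.6% of IMQ and 3.31% of IMQ+celastrol T cell-like cells at the same depth and, before thinning, in 0 of 679 normal ones, which allows a share of up to 0.442%, with median UMIs per cell of 2766, 3203 and 2523.5 before thinning. The fibroblast shares of Saa3 in IMQ and IMQ+celastrol were above these, and for Lcn2 the T cell-like shares were 0.360%, 3.21% and 2.65%.

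Several of the genes were counted in the same cells. At least 3 of the 9 were detected in 0.122% of normal, 65.9% of IMQ and 14.9% of IMQ+celastrol thinned fibroblasts, and none in 68.9%, 3.97% and 30.9%. These shares also follow from how common each gene was by itself. Saa3 and Lcn2 were both detected in 51.7% of thinned IMQ fibroblasts, beside 43.3% as the product of their single shares. For Lcn2 with Cp these values were 33.9% and 31.1%, and for Cp with Serpina3m 8.22% and 8.28%. Correlations used the 3151 IMQ fibroblasts with at least 3000 UMIs, before thinning and scaled by each cell's total, so depth still differed between cells. The log level of Saa3 had a Pearson r of 0.54 with Lcn2 and 0.51 with Serpina3n. Cp had an r of 0.33 with Saa3 and −0.01 with Serpina3m, and Saa1 0.31 and 0.07. Expression was also uneven: the 10% of fibroblasts with most Saa3 held 62.1% of the Saa3 UMIs in IMQ and 96.5% in IMQ+celastrol. The highest single cell had 3800 Saa3 UMIs in IMQ and 1823 in IMQ+celastrol, so a few cells kept very high Saa3 with celastrol while the median cell had 9 UMIs in IMQ and 0 in IMQ+celastrol. At 3000 UMIs, 17.2% of IMQ and 1.06% of IMQ+celastrol fibroblasts had 100 or more Saa3 UMIs.

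**Figure D3:**
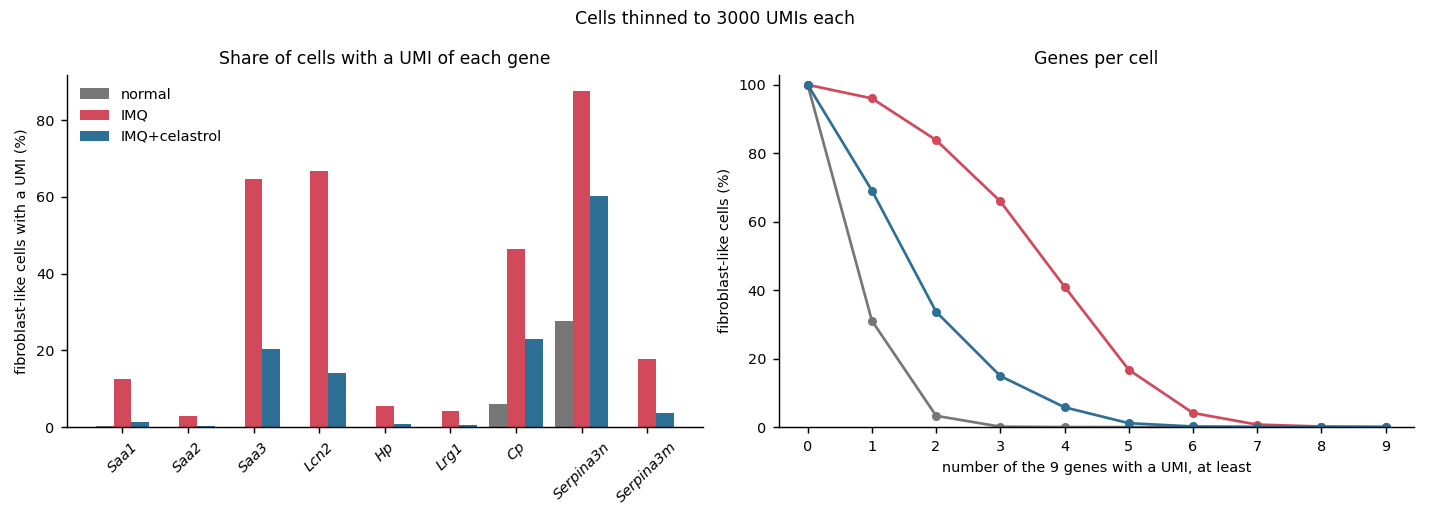
Share of fibroblast-like cells with at least 1 UMI of each gene after thinning to 3000 UMIs per cell (percent), and number of the 9 genes detected per cell in each library. Saa3 was detected in 64.7% of IMQ and 20.4% of IMQ+celastrol cells, and the cells with no gene detected make up 68.9% of normal and 3.97% of IMQ cells.

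Fibroblast-like cells were split into 20 subsets without the 9 genes, of which 10 held at least 50 cells in both imiquimod libraries. Saa3 was lower with celastrol in 10 of 10, but its level differed widely between subsets. Subset 3, led by Chl1, Ctla2a and Sectm1a, held 15.2% of IMQ fibroblasts and 49.2% of their Saa3 UMIs, with a median of 447 UMIs per cell. Its Saa3 level was 38844 CPM in IMQ and 4200 CPM in IMQ+celastrol, 9.25-fold lower (9.08 to 9.42). Subset 5, remodelling-like by its markers and led by Wfdc12, Grem1 and Slpi, had 34767 and 6253 CPM, the smallest fall at 5.56-fold (5.48 to 5.65), and held 44.2% of the Saa3 UMIs that remained with celastrol. Even there the median cell went from 126 UMIs in IMQ to 3 in IMQ+celastrol. Subset 2 (Thbs4, Hmcn2) had 19045 and 1253 CPM of Saa3, and subset 8 (Gdf10, F3) 15261 and 2128 CPM. Saa1 was spread differently: subset 2 held 35.8% of the Saa1 UMIs of IMQ fibroblasts and subset 3 22.7%, beside 14.9% and 49.2% of Saa3. The papillary-like subset 12 (Fmod, Coch) had 4661 and 62.9 CPM, the largest fall of the 10 at 74.1-fold (58.2 to 96.0). The dermal sheath-like subset 6 (Tnn, Itga8), around the hair follicle, had the lowest Saa3 of the 10, with 332 CPM in IMQ and 10.4 CPM in IMQ+celastrol.

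The other abundant genes were distributed differently over the same subsets. Lcn2 was also lower in 10 of 10, by 8.37-fold in subset 2 to 77.6-fold in subset 6, and was highest in subset 5 (4342 CPM) and subset 3 (4181 CPM) of IMQ. Cp was highest in IMQ in subset 14 (1224 CPM), led by Akr1c14 and Timp3, and was called lower in 7 of 7 subsets tested, by 2.83- to 5.32-fold. Subset 16 (Trf, Spp1), with 49 IMQ+celastrol cells, was not compared, and its Cp was 1775 CPM in IMQ and 1842 CPM in IMQ+celastrol. The Cp level of subset 3 in IMQ was 369 CPM, below the 1021 CPM of subsets 2 and 8. Serpina3n was called lower in 7 of 10. In the remodelling-like subset 5 it stayed at 4340 CPM in IMQ and 4154 CPM in IMQ+celastrol, a 1.04-fold difference (1.02 to 1.07), while Saa3 and Lcn2 in those cells were 5.56- and 10.7-fold lower. Serpina3n was 1.62-fold lower in subset 3 (4628 to 2865 CPM) and 1.61-fold in subset 14, short of the call, and 6.31-fold lower (5.56 to 7.17) in the dermal sheath-like subset 6. Subsets 1, 7, 9, 11 and 18 held cells of the normal library almost alone, while subsets 2, 4, 8, 10 and 12 held at least 50 cells of each library. Saa3 had no UMI in the normal cells of subsets 2, 4, 8 and 12, which allows up to 4.69, 9.75, 13.3 and 9.10 CPM. In subset 10 the normal cells had 154 CPM of Saa3, all 27 UMIs in 1 cell, beside 2359 CPM in IMQ and 123 CPM in IMQ+celastrol. Cp and Serpina3n were already counted in normal cells of subset 2 (153 and 73.4 CPM) and subset 8 (190 and 102 CPM), below both imiquimod libraries.

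**Figure D4:**
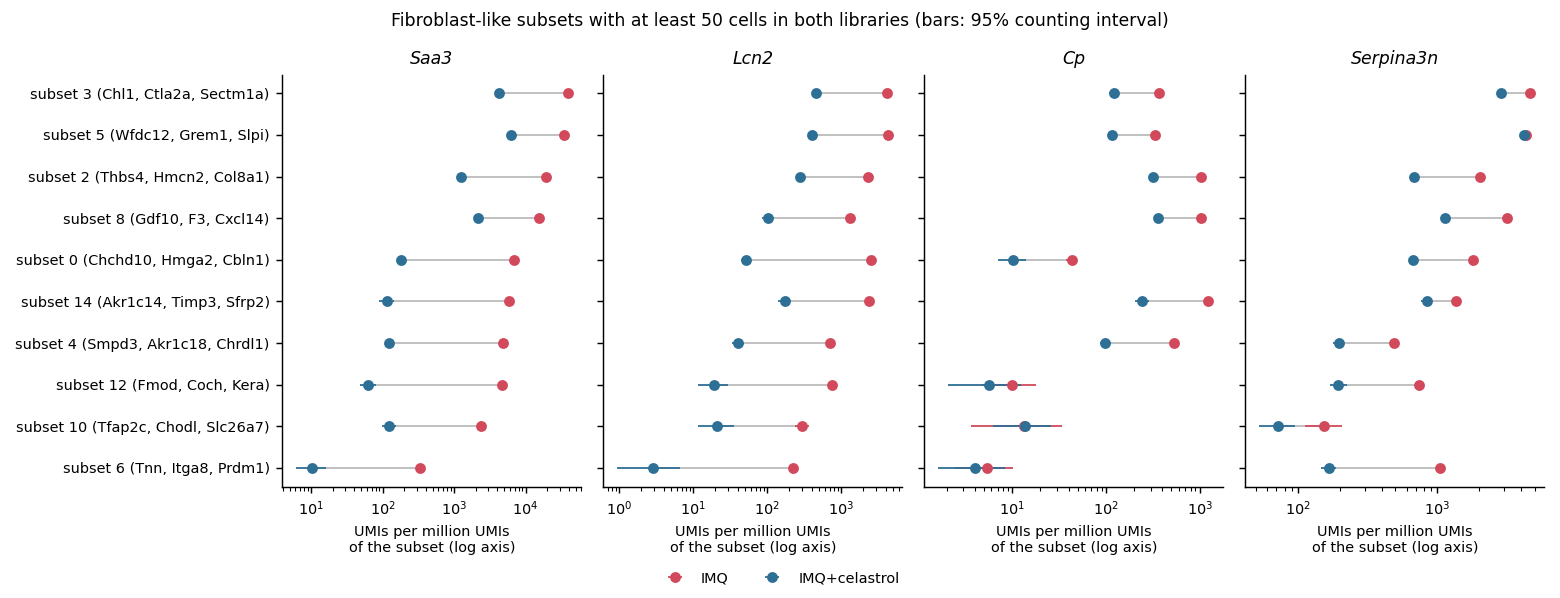
Level (CPM, log axis) of Saa3, Lcn2, Cp and Serpina3n in the 10 fibroblast subsets with at least 50 cells in both IMQ and IMQ+celastrol. Saa3 and Lcn2 are lower with celastrol in every subset, while Serpina3n in subset 5 is 4340 CPM in IMQ and 4154 CPM in IMQ+celastrol.

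In keratinocyte-like cells, which pooled clusters named basal, suprabasal, and outer root sheath or upper follicle keratinocyte, Lcn2 was the most abundant of the 9. Lcn2 was counted at 11.5 CPM in normal, 311 CPM in IMQ and 40.3 CPM in IMQ+celastrol. It was 27.2-fold higher in IMQ than in normal (24.2 to 30.6) and 7.71-fold lower in IMQ+celastrol than in IMQ (7.37 to 8.07). The rise depended on how cells were classed, averaged and thinned. Its log2 value of 4.76 became 8.27 with each library clustered by itself and 3.94 when no cluster was left unnamed. With the classes unchanged it became 5.86 as a mean over cells and 6.13 when thinned. Of the 290 normal Lcn2 UMIs, 78 came from 1 cell. The fall was seen in each of the 3 keratinocyte clusters that held most IMQ cells: cluster 7 (led by Krt79 and Gpx2) had 434 and 76.1 CPM, the cycling cluster 10 had 329 and 46.3 CPM, and cluster 19 (led by Sprr2d) had 171 and 24.96 CPM. Normal keratinocytes lay mostly in other clusters (4, 9, 25, 22 and 32), and cluster 16 held 568 of the 1705 IMQ+celastrol keratinocytes but 23 of the 1248 IMQ ones. At 3000 UMIs, Lcn2 was detected in 0.863%, 42.6% and 7.78% of keratinocytes, above the T cell-like shares of 0.360%, 3.21% and 2.65%.

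Saa3 in keratinocytes was not separated from free RNA, and its source was not tested. Its level was 0.0789 CPM in normal (2 UMIs), 78.8 CPM in IMQ and 14.8 CPM in IMQ+celastrol, and 7.90% of IMQ and 2.55% of IMQ+celastrol keratinocytes had a UMI at 3000 UMIs, below the T cell-like shares of 11.6% and 3.31%. Before thinning, IMQ keratinocytes had a median of 38509 UMIs per cell and IMQ T cell-like cells 3203. Thinning thus took out a larger part of any free RNA in keratinocytes. These shares therefore cannot place any gene of this paragraph at the free-RNA level. Without thinning, the 1248 IMQ keratinocytes held 4068 Saa3 UMIs and the 753 IMQ T cell-like cells 154. The 10% of IMQ keratinocytes with most Saa3 held 87.1% of its UMIs there, and the highest cell had 500. Per 1000 UMIs of the 5 fibroblast genes, IMQ keratinocytes held 612 Saa3 UMIs, close to the 624 of IMQ fibroblasts. IMQ T cell-like cells held 156 by this ratio. The same ratio for Lcn2 was 2411 in keratinocytes and 84.4 in fibroblasts. The ratio was also near that of fibroblasts for Serpina3n (76.9 in keratinocytes, 84.4 in fibroblasts) and Cp (21.2 and 15.6), and 2.69% and 0.814% of thinned IMQ keratinocytes had a UMI of them, below the 3.95% and 1.23% of T cell-like cells. In IMQ T cell-like cells the ratio was 73.1 for Serpina3n and 46.7 for Cp. Whether the keratinocyte counts of these 2 genes came from free RNA was not tested. For Hp the keratinocyte share of 0.651% was below the T cell-like 0.988%, and for Saa1 the shares were 0.489% and 0.247%. Of 7 genes tested, 6 were called higher with imiquimod in keratinocyte-like cells, where 7.91% of genes were. Besides Lcn2, Saa3 was 999-fold higher (276 to 8251), Saa1 25.7-fold (8.63 to 126, from 3 normal UMIs), Serpina3n 15.7-fold (9.56 to 27.6) and Cp 4.33-fold (2.57 to 7.78). Hp had no UMI in normal and 97 in IMQ, at least 15.9-fold higher against a limit of 3 counts, and Lrg1 was 2.09-fold (0.948 to 5.22), not called. With celastrol, 5 of 8 tested were called lower (3.27% of genes were): Saa1 12.5-fold, Lcn2, Saa3 5.33-fold, Cp 3.83-fold and Hp 3.71-fold. Serpina3n differed by 1.29-fold (1.13 to 1.47; log2 −0.37, but −1.62 with doublets at Scrublet's threshold and −1.45 when thinned), Lrg1 by 1.67-fold (0.943 to 3.03) and Serpina3m by 1.92-fold (0.711 to 5.68).

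Monocyte or macrophage-like cells gave another order, led by Saa3, Hp and Lcn2. Saa3 had no UMI in the 114 normal cells, which allows up to 11.4 CPM, and had 3957 CPM in IMQ and 1115 CPM in IMQ+celastrol. Hp had 98.8, 917 and 806 CPM, Lcn2 0, 592 and 712 CPM, and Lrg1 19.0, 208 and 274 CPM. Cp had 41.8, 8.79 and 5.72 CPM, from 11, 27 and 2 UMIs. Of 6 genes tested, 4 were called higher with imiquimod (6.96% of genes were): Saa3 at least 347-fold, Lcn2 at least 51.9-fold, Lrg1 10.9-fold (4.66 to 33.8) and Hp 9.28-fold (6.32 to 14.2). Cp was called lower, by 4.76-fold (2.13 to 9.90), where 6.38% of genes were, but its log2 ratio of −2.25 became −0.90, within the 2-fold limit, when cells were thinned, and −4.14 as a mean over cells. With celastrol only Saa3 of 6 tested was called lower, by 3.55-fold (3.21 to 3.94), where 2.53% of genes were; its log2 ratio of −1.83 became −3.04 with each library clustered by itself. Hp was 1.14-fold lower (1.01 to 1.29), while Lcn2 was 1.203-fold (1.05 to 1.37) and Lrg1 1.32-fold (1.05 to 1.64) above IMQ, none of them called. The IMQ+celastrol values rest on 58 cells.

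The make-up of this class differed between libraries. Cluster 40, led by the complement genes C1qa, C1qb and C1qc of resident macrophages, held 101 of the 114 normal cells, 67 IMQ cells and 14 IMQ+celastrol cells. Clusters 41 and 42, led by Chil3 and Lyz2, held 155 and 124 IMQ cells, 10 and 28 IMQ+celastrol cells, and 1 normal cell each. The Saa3 fall of the class with celastrol cannot be told apart from this difference in make-up. Saa3 in IMQ was 568 CPM in cluster 40, 6842 CPM in cluster 41, 2571 CPM in cluster 42 and 3663 CPM in cluster 47, and was 0 in normal cells of the class. Cp in cluster 40 was 51.3 CPM in normal and 51.1 CPM in IMQ. Per 1000 UMIs of the 5 fibroblast genes, IMQ cells of this class held 20910 Saa3 UMIs, against 624 in fibroblasts, and 70.0% of them had a Saa3 UMI at 3000 UMIs against 11.6% of T cell-like cells. Per 1000 UMIs of the same 5 genes, IMQ T cell-like cells held 156 Saa3 UMIs. The source of the Saa3 counted in monocyte or macrophage-like cells was not tested.

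In the IMQ library fibroblast-like cells held most UMIs of 7 of the 9 genes whether or not the 5 adipocyte-marker cells were counted, the exceptions being Hp and Lrg1. Fibroblast-like cells held 97.2% of all Saa3 UMIs of the IMQ library and 97.0% of those of IMQ+celastrol, 95.8% and 94.5% for Serpina3n, 98.2% and 96.2% for Serpina3m, and 99.8% (77.9% without the 5 cells) and 96.6% for Saa2. For Saa1 they held 96.7% and 88.8%, for Cp 87.2% and 79.3%. The share was 71.6% and 47.2% for Lcn2, with 12.8% and 22.9% in keratinocyte-like cells. For Hp it was 61.0% in IMQ, but 28.0% (3774 of 13502 UMIs) without the 5 cells, and 24.8% in IMQ+celastrol, where neutrophil-like cells held 30.2% and monocyte or macrophage-like cells 25.6%. Fibroblast-like cells held 16.6% (9.65% without the 5 cells) and 3.5% of Lrg1 UMIs, whereas lymphatic endothelial-like cells held 36.8% and 67.6%. In normal skin 75.6% of Lrg1 UMIs came from blood vascular endothelial-like cells. These shares follow the number of cells captured as well as the level in each cell.

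**Figure D5:**
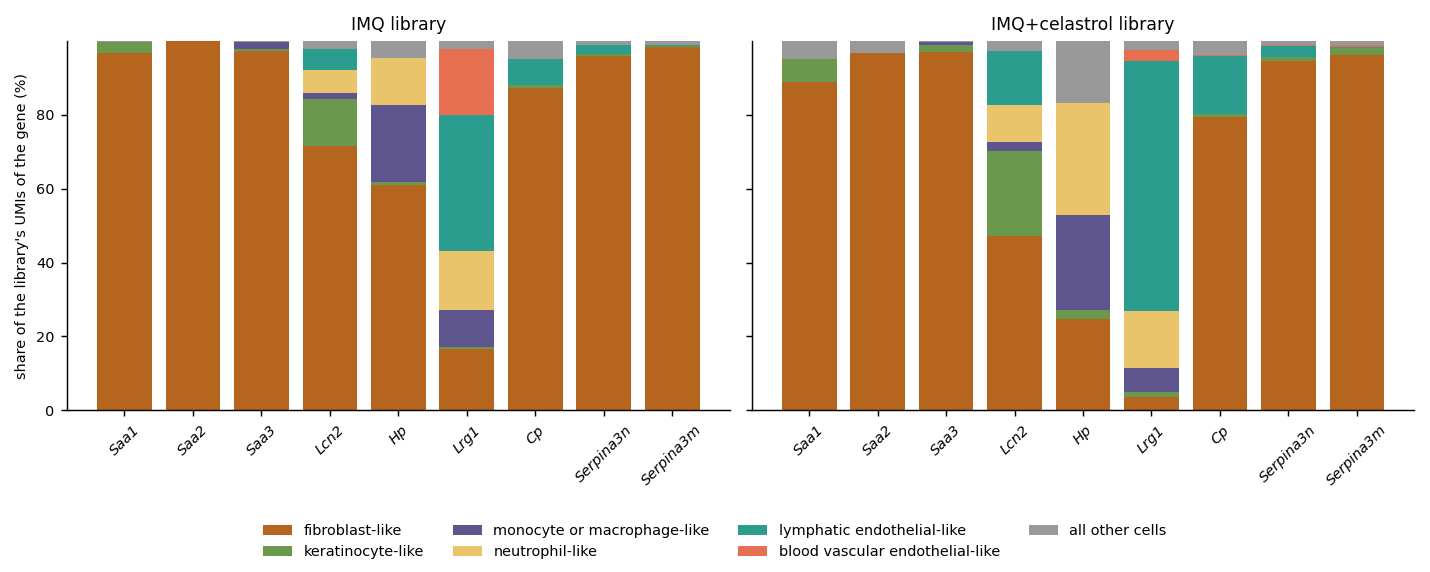
Share of each gene's UMIs (percent of the library) that came from each cell class, in IMQ and IMQ+celastrol. Fibroblast-like cells held 97.2% and 97.0% of Saa3 UMIs, but 61.0% and 24.8% of Hp UMIs, the first falling to 28.0% without the 5 adipocyte-marker cells.

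Lymphatic endothelial-like cells (181 in IMQ, 150 in IMQ+celastrol, 49 in normal, too few to compare) expressed 4 of the genes at high level. Lcn2 was 4939 CPM in IMQ and 1360 CPM in IMQ+celastrol, 3.63-fold lower (3.43 to 3.85), where 2.04% of genes were called lower. Lrg1 (1645 and 999 CPM) and Serpina3n (1602 and 970 CPM) were each 1.65-fold lower, and Cp (929 and 679 CPM) 1.37-fold, none of them called. Saa3 was 48.1-fold lower (26.7 to 96.8), at 527 and 10.96 CPM. In neutrophil-like cells (160 and 70), where lipocalin 2 and haptoglobin are known granule proteins, Lcn2 was 10501 and 4678 CPM, 2.24-fold lower (2.10 to 2.41), with 4.78% of genes called lower. Hp there was 2268 and 1683 CPM and Lrg1 1318 and 1161 CPM, differing by 1.35-fold (1.198 to 1.52) and 1.14-fold (0.983 to 1.32). In pericyte or smooth muscle-like cells (503 and 454), all 7 genes tested were called lower with celastrol, where 1.40% of genes were. For example, Saa3 was at 124 and 6.40 CPM and Cp at 117 and 22.8 CPM, both below their fibroblast levels. Lrg1, with 116 and 12 UMIs there, was near its fibroblast level in IMQ+celastrol. In IMQ it was below the level of all fibroblast-like cells, and near that level without the adipocyte-marker cells.

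Other acute-phase genes moved the same way in fibroblast-like cells, with a smaller median. Of 33 listed genes in the matrix, 20 could be tested, and the counts of this and the following lists stand beside 6.91% of all fibroblast genes called higher with imiquimod and 2.81% called lower with celastrol. With imiquimod 17 of 20 were called higher and none lower, with a median log2 ratio of 2.58 beside −0.09 over all genes. With celastrol 11 of 20 were called lower and none higher, with a median of −1.06 beside 0.16. Serpina3f, a neighbour in the serpin family, had 0.880, 22.5 and 2.74 CPM in normal, IMQ and IMQ+celastrol and was 8.19-fold lower with celastrol. Lbp, the lipopolysaccharide binding protein gene, had 78.5, 567 and 138 CPM and was 4.11-fold lower. Steap4, a metalloreductase gene, had 39.4, 479 and 123 CPM and was 3.88-fold lower. Complement C3 rose 12.2-fold with imiquimod, from 212 to 2590 CPM, and at 1467 CPM with celastrol was 1.77-fold lower (1.74 to 1.79), short of the call. The pentraxin gene Ptx3 likewise had 20.8, 177 and 99.3 CPM, 1.78-fold lower (1.70 to 1.87). Of the negative acute-phase genes, whose plasma products fall in inflammation, Trf and Ttr were called higher and Apoa1 lower of 4 tested with imiquimod, and none of 5 was called with celastrol.

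Among the cytokines known to drive these genes, 4 of 7 tested in fibroblast-like cells were called higher with imiquimod (6.91% of all genes) and 3 of 6 lower with celastrol (2.81% of all genes). Il6 had 51.2, 208 and 77.4 CPM in normal, IMQ and IMQ+celastrol, 4.05-fold higher (3.78 to 4.35) and then 2.68-fold lower (2.55 to 2.82). Lif, of the same family, had 5.87, 28.0 and 9.68 CPM. In T cell-like cells Il17a had 336, 1827 and 690 CPM and was 2.65-fold lower with celastrol (2.47 to 2.85), where 1.97% of genes were called lower. Il22 in those cells had 12.3, 1472 and 190 CPM, 7.74-fold lower (6.79 to 8.85). In monocyte or macrophage-like cells Il1b had 388, 1744 and 1341 CPM, 1.30-fold lower with celastrol (1.18 to 1.43) and not called. Il6 and Lif of fibroblasts and Il17a and Il22 of T cell-like cells thus passed the limit for a fall, and Il1b of phagocytes did not.

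Receptors and factors downstream of those cytokines were also counted. Of 9 receptor genes tested in fibroblasts, 6 were called higher with imiquimod (6.91% of all genes) and 1 lower with celastrol (2.81% of all genes), Il1r1 (64.4, 278 and 125.5 CPM, 2.21-fold lower). Osmr, the oncostatin M receptor, had 41.1, 184 and 94.3 CPM, 1.95-fold lower and not called. Of 10 transcription factor and feedback genes, Stat3 (2.45-fold) and Zc3h12a (2.66-fold) were called higher with imiquimod, and Cebpd alone lower with celastrol. Cebpd had 624, 1119 and 494 CPM, 2.26-fold lower (2.22 to 2.31), while Cebpb had 1145, 1711 and 1100 CPM and Socs3 563, 665 and 779 CPM, not called. Of 7 receptors of the encoded proteins, Tlr2, Tlr4 and Lrp1 were called higher with imiquimod and Slc22a17, a lipocalin 2 receptor, lower by 2.32-fold (2.07 to 2.60), and none was called with celastrol. Lrp1, the celastrol target named in the study's title, had 567, 1482 and 1010 CPM, 1.47-fold lower with celastrol (1.45 to 1.49).

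The genes with the profile most like that of Saa3 over 27 cell class and library profiles were C3 (Pearson r 0.81), Cxcl13 (0.76), Lif (0.74), Cfb (0.73) and Lpgat1 (0.70), among 15975 genes. For Serpina3n they were Glis3 (0.91), Fibin, Adamts5, Angptl2 and Tnxb. For Lcn2 they began with 6430548M08Rik (0.87). The profiles share libraries, so these values only describe likeness.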

How the data were processed

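Single-cell 3′ RNA-seq UMI counts were deposited as 1 gene by cell matrix per library, not normalized by the authors. Per the file headers, Cell Ranger 4.0.0 made them, and builds mm10 and GRCm38 are named in the submitters' processing notes. Cells with at least 300 genes and at most 20% mitochondrial UMIs were kept, and those with the top Scrublet scores, at 0.8% per 1000 cells, were left out as doublets (870, 513 and 330). The libraries were clustered together, without integration and without the 9 genes, using scanpy 1.11.5 with leidenalg 0.10.2 (2000 variable genes, 30 components, 15 neighbours, resolution 1), and fibroblasts again after centring within library (20 components, resolution 0.6). Of 53 clusters, 9 stayed unnamed, as did 13 of 20 subsets. A name needed at least 3 markers detected in 25% of cells, a score of 0.4 and a lead of 1.2 times. These naming thresholds, the merging of keratinocyte types and the re-clustering of phagocytes were set after clusters had been seen, so class boundaries may differ from the authors'. Raw counts were summed per class and library. CPM has an exact Poisson interval and a ratio an exact conditional binomial one (scipy 1.17.1), at 95%, and shares of cells a Clopper-Pearson interval. Classes under 50 cells in a library were not compared, and a count of 0 was set to 3 counts for a lower bound on a fold. The calling step was tested on simulated data. The named genes are the 9, in every class, and any gene of the lists of acute-phase genes, cytokines, receptors, factors and protein receptors. The 9 genes and these lists were chosen with earlier results of these data known. Likeness to Saa3, Lcn2 and Serpina3n was ranked by Pearson r over log2(CPM + 10) profiles, naming 5 genes each. Alternatives covered doublets, filters, depth, fold, naming and clustering.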

Additional observations from a re-analysis of the deposited data

Results flagged for a closer look

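Cp, the ceruloplasmin gene, was the one gene among the 9 whose imiquimod difference pointed in opposite directions in different cell classes. Its log2 ratio of IMQ over normal was 4.21 in fibroblast-like cells and 2.11 in keratinocyte-like cells, but −2.25 in monocyte or macrophage-like cells. The last value became −0.90, within the 2-fold limit, when cells were thinned to 3000 UMIs, and −4.14 as a mean over cells. The difference between classes was not tested, since each group has 1 library. The monocyte or macrophage-like Cp value rests on 11 UMIs in normal and 27 UMIs in IMQ. In cluster 40 of that class Cp was 51.3 CPM in normal and 51.1 CPM in IMQ.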

How the results depend on the processing

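No paired analysis was possible because each group has 1 library. For the same reason no library could be left out. Of 41 log2 ratios of single genes, 36 kept their direction in every alternative, and the other 5 were not called (Cp, Lcn2, Lrg1 and Serpina3n in monocyte or macrophage-like cells and Lrg1 in keratinocyte-like cells, IMQ+celastrol over IMQ). In keratinocyte-like cells the 6 genes called higher with imiquimod became 3 when cells were thinned to 3000 UMIs. There the 5 called lower with celastrol became 8 with doublets taken at Scrublet's own threshold, 3 when thinned and 3 at a 4-fold limit. In monocyte or macrophage-like cells the 1 called lower with celastrol became 2 when each library was clustered by itself and 0 at a 4-fold limit. The cause of these changes was not tested, beyond the fewer UMIs of thinning and the stricter limit. The fibroblast log2 ratio of Saa3 in IMQ+celastrol over IMQ ranged from −3.65 to −3.22, and that of Hp from −5.40 to −3.40. For IMQ over normal the log2 ranges were 11.43 to 14.59 for Saa3, 10.91 to 12.44 for Lcn2 and 7.70 to 9.44 for Hp in fibroblast-like cells, 8.19 to 11.69 for Saa3, 3.94 to 8.27 for Lcn2 and 2.79 to 5.01 for Serpina3n in keratinocyte-like cells, and −4.14 to −0.90 for Cp and 3.21 to 5.20 for Lrg1 in monocyte or macrophage-like cells. Leaving out the adipocyte-marker cells and weighting subsets as in IMQ were added after seeing the data. Depth limits the genes at few UMIs, such as Saa2 and Lrg1 in normal fibroblasts, and the 58 IMQ+celastrol monocyte or macrophage-like cells.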
